A study of Coryphaena hippurus with 21 samples.

Results

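MicroRNAs (miRNAs) of mahi-mahi larvae (Coryphaena hippurus) were compared directly between the highest exposures to slick oil and to source oil of the Deepwater Horizon spill. The slick group had 3 libraries, named here by their count columns H4, H5 and H6, and the source group had 3 libraries, H1, H2 and H3. A miRNA name entered when it was listed in the count tables of both groups and was above 0 in all 6 libraries, which held for 114 of the 329 names of the series. Family totals, in which species prefix, letter and arm were dropped, gave 83 families above 0 in all 6 libraries. No unexposed library entered either test.

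Both groups were whole larvae sampled at 48 hours post fertilization (hpf), raised from freshly fertilized embryos in beakers without water renewal. The exposure water was a diluted high-energy water-accommodated fraction, made by blending oil into seawater, at 2% for slick oil (slick H) and 0.5% for source oil (source H). Slick oil was collected from the sea surface after weathering, and source oil came from the well. The titles of the source samples carry the word mass, which was read as source oil since the series text speaks of no other oil besides slick. The nominal concentration of slick H was 4 times that of source H, so the kind of oil and its concentration cannot be told apart here. RNA came from pooled larvae, and nothing in the labels says whether the libraries of a group were separate beakers, so p-values measure the spread between libraries, which may be technical. Whole larvae also mean that fewer cells of a type and less miRNA per cell cannot be told apart.

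A miRNA is a short RNA cut from a hairpin precursor that guides Argonaute proteins to messenger RNAs and lowers their translation or stability. Bases 2 to 8 of the miRNA, the seed, do most of the pairing, so miRNAs of a family that share a seed can share targets, and miRNAs of a cluster are cut from 1 primary transcript. In fish larvae, sets of miRNAs mark tissues, such as miR-206 and miR-133 in muscle, miR-9 and miR-124 in the nervous system, miR-126 in endothelium and miR-142 in blood cells. The names in the tables carry 31 species prefixes among the 114 tested, such as ola for medaka, dre for zebrafish and ssa for salmon, and none belongs to mahi-mahi. A name was therefore read as a member of its family, and names of near-identical sequence may share reads.

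Total counts were 8284057, 3995199 and 3407490 in slick H4, H5 and H6, and 7087183, 8660114 and 3157670 in source H1, H2 and H3. The 114 tested names held 69.0 to 91.89% of them. The first library of each table, H4 and H1, had no listed name at 0, whereas the other libraries had 44 to 58 names at 0. Of the 150 names in both tables, 36 had a 0 in at least 1 library and were not tested, 28 of them although they reached 100 counts in another library. The main muscle and neural miRNAs of a whole larva led the libraries. Over 99 names above 0 in all 21 libraries, the first principal component (51.1% of the variance) placed source H at 5.79 to 9.97, slick H at -4.17 to -3.95 and unexposed control at -2.96 to -2.06. These positions were not particular to the highest doses. Source oil at 0.25% lay at 5.01 to 7.51, and at 0.125% it spread from -3.15 to 7.12. Slick oil lay at -3.47 to -2.54 at 1% and at -5.15 to -3.95 at 0.5%. Slick H libraries were also closer to each other than source H libraries, with a median SD on the log2 scale of 0.30 against 0.44.

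Of the 114 names, 42 (36.8%) differed between the oils at an adjusted p under 0.05 in edgeR's quasi-likelihood test with Benjamini-Hochberg adjustment over all names. In slick H, 18 names (15.8%) were higher and 24 (21.1%) lower than in source H. With names of nearly equal counts tested once, 40 of 108 names were called, 19 higher and 21 lower. The 3 libraries of one oil lay wholly above the 3 of the other in all 42, and in 58 of the 114 names (50.9%) in all. Log2 fold changes, given throughout as slick over source, ran from -2.60 to 3.52 with a median of -0.16, and 46 names moved by at least 1. Levels are CPM, counts scaled to a common library size with TMM factors, which match libraries on the bulk of the names. Scaling by total counts raised the median log2 by 0.36 and gave 28 higher and 10 lower names, so the split between directions depends on the scaling. No called name changed direction in any of the alternatives, and 13 of the 42 kept their call in all of them. The count depends on single libraries, with 17 names called without slick H4, 21 without H5, 17 without H6 and 25 without source H2, and with 21 called without the first library of both tables.

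**Figure D1:**
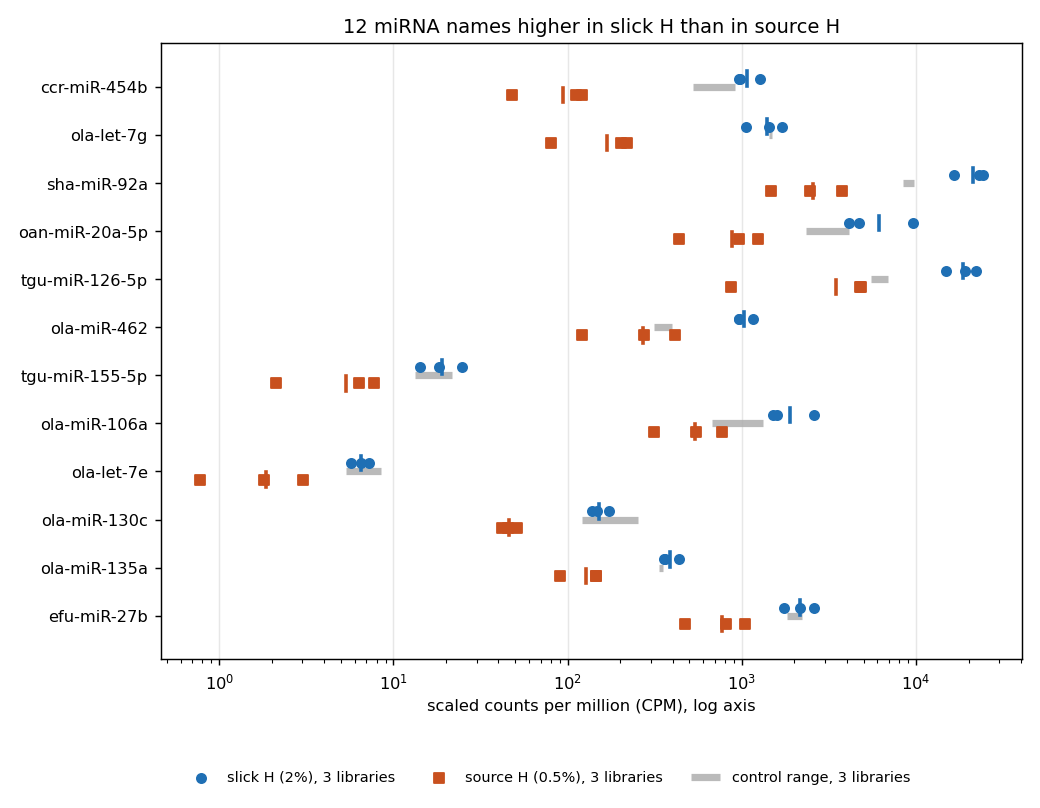
Scaled CPM (log axis) of the 12 called names with the largest rise in slick H, 1 point per library, with short vertical lines at group means and grey bars over the range of 3 control libraries. In all 12 the slick points lie right of the source points, from ola-let-7e under 10 CPM to sha-miR-92a at 16510 to 24290 CPM in slick H.

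Names of the miR-17-92 clusters, which code for miRNAs of proliferating cells, included 3 of the 18 names higher in slick H and none lower, among 10 tested, where 15.8% of all names were higher and 21.1% lower. The list had a median log2 of 0.34, against -0.16 over all tested names. The counts of every list below stand beside these same shares. The name sha-miR-92a, a member of the miR-25 and miR-92 seed family, stood at 16510, 24290 and 23080 CPM in slick H4, H5 and H6 and at 1470, 2467 and 3749 CPM in source H1, H2 and H3. The groups were far apart, with an 8.31-fold higher level in slick H (log2 3.06 ± 0.41 SE, adjusted p = 0.00237). For oan-miR-20a-5p, a member of the miR-17 seed family, the slick libraries read 9588, 4096 and 4691 CPM and the source libraries 433, 965.5 and 1245 CPM (log2 2.80 ± 0.52, adjusted p = 0.00591). Its highest value was in H4, and the lowest slick library was still above the highest source library. The same seed family includes ola-miR-106a, at 2582, 1586 and 1505 CPM in slick H against 312.4, 543.4 and 763.9 CPM in source H (log2 1.81 ± 0.40, adjusted p = 0.0125). Its adjusted p ran from 5.32e-05 to 0.0606 over the alternatives and passed 0.05 only without slick H4. A further member, ola-miR-17, was separated between the oils (2704 to 5092 CPM against 1169 to 2344 CPM) but missed the threshold, with a log2 of 1.05 and an adjusted p of 0.0583. That p ranged from 0.0153 to 0.265 over the alternatives, and without source H3 it was 0.0308. Not every cluster family was separated. The name hsa-miR-25-5p, labelled as the 5p arm of a hairpin in a related cluster, overlapped at 7886 to 10660 CPM in slick H and 6641 to 10810 CPM in source H (log2 0.04, adjusted p = 0.899). Uncalled names lay on both sides, at 0.12 for ssa-miR-18a-5p, 0.57 for chi-miR-18b-5p and -0.14 for dre-miR-93. The miR-19 names ola-miR-19b and ssa-miR-19c-4-5p, of nearly equal counts, were at -0.44 (adjusted p = 0.311). With slick oil at 1% against source oil at 0.25%, both miR-19 names were called lower (log2 -1.64, adjusted p = 0.00226).

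Names of miR-130, miR-301 and miR-454, which share a seed in their 3p arms in vertebrates, were higher in slick H in 3 of 6 tested names and lower in none, with a median log2 of 0.79. The name ccr-miR-454b had the largest difference of all 114. It read 1268, 968 and 974.6 CPM in slick H and 47.69, 112.2 and 120.5 CPM in source H, an 11.5-fold difference (log2 3.52 ± 0.41, adjusted p = 0.00237). The slick libraries were close together, and source H1 was the lowest of all. Similarly, ola-miR-130c stood at 171.6, 138 and 146.8 CPM in slick H against 41.7, 51.25 and 45.58 CPM in source H (log2 1.72 ± 0.25, adjusted p = 0.00237). A second miR-130c name, ipu-miR-130c, moved the same way (log2 1.23 ± 0.25, adjusted p = 0.00798), at 194 to 221.3 CPM against 73.55 to 98.46 CPM. In source oil at 0.25% both miR-130c names held the same counts in M1 (226) and M3 (383), though not in M5. They may therefore share reads and need not be separate measurements. Arm labels were not checked against sequences and need not name the true arm. For example, mdo-miR-24-3p and fru-miR-24-5p held the same counts in all libraries of the highest doses but slick H4. The names not called carry a 5p label, so if their labels hold, the list need not share 1 seed. Of these, hsa-miR-130b-5p overlapped between the oils, at 2771 to 3517 CPM in slick H and 1636 to 3055 CPM in source H (log2 0.35, adjusted p = 0.407). The miR-301 names also overlapped, ssa-miR-301a-5p with a log2 of 0.25 (adjusted p = 0.518) and dre-miR-301c-5p with -0.48 (adjusted p = 0.332). The 3 called names kept their call in all 17 alternatives.

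The let-7 family, whose members accumulate as animal tissues differentiate, was the only family with called names in both directions. All 5 tested names were called, 2 higher and 3 lower in slick H. The name ola-let-7g read 1058, 1428 and 1688 CPM in slick H and 79.74, 203 and 219.3 CPM in source H, an 8.32-fold difference (log2 3.06 ± 0.44, adjusted p = 0.00237), and kept its call in all alternatives. A rare name, ola-let-7e, rested on 41, 26 and 22 counts in slick H and 4, 18 and 4 counts in source H (log2 1.76 ± 0.50, adjusted p = 0.0271). The abundant let-7a name mse-let-7a went the other way, at 4021, 4115 and 4249 CPM in slick H against 7701, 9613 and 18180 CPM in source H (log2 -1.52 ± 0.37, adjusted p = 0.0177). The slick libraries were nearly equal, whereas source H3 was well above the other source libraries. Its counts were within 2% of those of tca-let-7-5p in all 6 libraries, so both names give 1 measurement. For ssc-let-7i the slick libraries read 240.1, 459.4 and 434.1 CPM and the source libraries 951.8, 837.8 and 761.2 CPM (log2 -1.17 ± 0.31, adjusted p = 0.0235). The calls were sensitive to single libraries. Adjusted p reached 0.0941 over the alternatives for ola-let-7e, 0.0699 for mse-let-7a and 0.110 for ssc-let-7i, and for all 3 names it passed 0.05 without slick H4, without H5 and without H6. For ola-let-7e it also did so without source H1, without the first library of both tables and with names at 0 allowed (0.0618). For ssc-let-7i it also did so without source H2.

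Endothelial and smooth muscle names split, with 2 higher and 4 lower in slick H of 12 tested (15.8% and 21.1% over all names) and a median log2 of -0.05. Of the 4 lower names 3 were miR-24 names of nearly the same counts, and over family totals the list had 2 higher and 1 lower. The endothelial miR-126, which lies in an intron of the vascular gene Egfl7 and keeps vessels intact in zebrafish, was represented by tgu-miR-126-5p. It stood at 19040, 22210 and 14770 CPM in slick H and at 864, 4752 and 4850 CPM in source H (log2 2.42 ± 0.60, adjusted p = 0.0187). Source H1 was far below the other source libraries, and all source libraries were below all slick libraries. Its adjusted p ranged from 6.24e-05 to 0.0622 over the alternatives. It passed 0.05 without slick H4 (0.0537) or H6 (0.0507) and with zeros allowed (0.0622). Smooth muscle miR-145, the partner of miR-143 in a cluster that controls the contractile state in mouse, was lower in slick H. The name oan-miR-145-5p read 49.92, 70.36 and 94.57 CPM in slick H and 499.1, 274.1 and 158.4 CPM in source H (log2 -2.12 ± 0.46, adjusted p = 0.0107). The source libraries differed from each other by more than 3-fold, and the nearest pair across the oils was slick H6 and source H3. The call ended with zeros allowed (adjusted p = 0.0618) and without the first library of both tables (log2 -1.40, adjusted p = 0.0575), within a range from 0.000104 to 0.0618.

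Families of the miR-23, miR-27 and miR-24 cluster, expressed in endothelium in mouse, did not move together. The name efu-miR-27b was higher in slick H, at 2164, 1736 and 2605 CPM against 470.1, 811.1 and 1036 CPM (log2 1.49 ± 0.36, adjusted p = 0.0177). All 3 miR-24 names called were lower. In fru-miR-24-5p the slick libraries read 217.3, 257.1 and 268 CPM and the source libraries 444.1, 442.7 and 434.5 CPM (log2 -0.83 ± 0.23, adjusted p = 0.0262). The names ssa-miR-24a-4-5p and mdo-miR-24-3p held the same counts as fru-miR-24-5p in 5 libraries or more, and mdo-miR-24-3p differed in slick H4, with 778 counts against 1554. The miR-24 family total was not lower, with a log2 of 0.04 and an adjusted p of 0.943. That total added 2 of these names in slick H and 1 in source H, and with the highest name per library its log2 was -0.75 (adjusted p = 0.0670, range 0.0494 to 0.997 over the alternatives). Over the alternatives the adjusted p reached 0.0698 for efu-miR-27b, which lost its call without slick H4, slick H6 or source H2. It reached 0.174 for fru-miR-24-5p, which lost its call without any 1 of the slick libraries or source H2. For 2 miR-23 names, chosen after their values were seen, source H3 decided the result. The name oar-miR-23b was even in slick H (688.2, 700.9 and 593 CPM) and spread in source H (107.7, 269.8 and 735.5 CPM), with source H3 above every slick library. Its log2 was 0.84 ± 0.59 with an adjusted p of 0.300, and without source H3 the log2 was 1.81 with an adjusted p of 0.0136 (range 0.0136 to 0.609 over the alternatives). The same held for dre-miR-23a-3-5p, with a log2 of 0.77 that became 1.56 without source H3 (adjusted p 0.273 and 0.0147, range 0.0147 to 0.540).

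Blood cell names were called in 5 of 6, 2 higher and 3 lower in slick H, with a median log2 of -1.53, where 36.8% of all names were called. The 3 lower names include miR-142 under 2 names of equal counts, and over family totals the list had 2 higher and 2 lower with a median of 0.10. The called names also include ola-miR-462 and ola-miR-731, which are counted in the list of miRNAs first named in fish as well. The name not called was mmu-miR-142b, which overlapped between the oils (log2 -1.50, adjusted p = 0.277). The teleost cluster of miR-462 and miR-731, induced by interferon and hypoxia in fish, had 1 tested name for each family, and they went in opposite directions. The name ola-miR-462 stood at 1158, 963.2 and 964.8 CPM in slick H and 120.3, 275.1 and 414.2 CPM in source H (log2 1.93 ± 0.43, adjusted p = 0.0125). By contrast, ola-miR-731 read 211.6, 180.9 and 299.1 CPM in slick H and 780.8, 703.8 and 547.3 CPM in source H (log2 -1.56 ± 0.30, adjusted p = 0.00613). The call of ola-miR-462 ended without slick H4 (adjusted p = 0.0537) or H6 (0.0507) and with zeros allowed (0.0519), within a range from 5.32e-05 to 0.0537. The call of ola-miR-731 held without any single library and ended without the first library of both tables (adjusted p = 0.0575, within a range from 4.62e-05 to 0.0575).

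The immune cell name tgu-miR-155-5p was rare, with 11, 46 and 14 counts in source H1, H2 and H3. It was higher in slick H at 14.12, 18.34 and 24.63 CPM against 2.124, 7.679 and 6.317 CPM (log2 1.82 ± 0.49, adjusted p = 0.0235). The call ended without slick H5 or H6 and with zeros allowed (range of adjusted p 0.00242 to 0.0647). Blood cell miR-142 was lower, with ola-miR-142 at 24.33, 19.6 and 20.03 CPM in slick H and 103.3, 56.09 and 32.49 CPM in source H (log2 -1.59 ± 0.42, adjusted p = 0.0235). The name tgu-miR-142-5p held the same counts and is no second measurement. Its adjusted p passed 0.05 without any 1 of the slick libraries or source H1, within a range from 0.00576 to 0.0936.

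**Figure D2:**
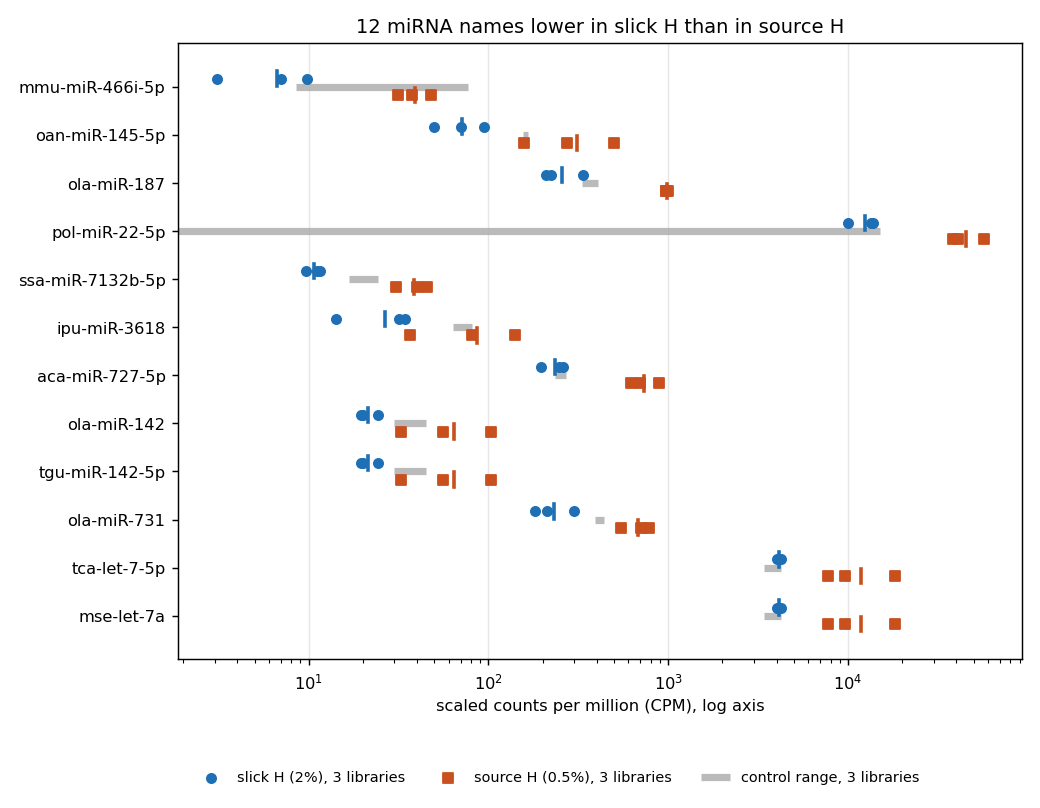
Scaled CPM (log axis) of the 12 called names with the largest fall in slick H, 1 point per library, with short vertical lines at group means and grey bars over the range of 3 control libraries, where a bar that meets the left edge starts at 0 CPM. Every slick point lies left of the source points of its name, most widely for mmu-miR-466i-5p, and both miR-142 names hold the same values.

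Skeletal muscle miR-206, a regulator of muscle and nerve contacts in mouse, was the most abundant miRNA and was lower in slick H. Its list, muscle and heart, had 1 name higher and 1 lower of 3 tested, with a median log2 of -0.88. The name ssa-miR-206-5p took 33.9 ± 5.51% of the tested counts in slick H (SD, n = 3) and 47.4 ± 4.57% in source H. Its scaled levels were 222100, 355200 and 316700 CPM against 439300, 598100 and 607100 CPM (log2 -0.88 ± 0.22, adjusted p = 0.0187). Scaling by total counts left a log2 of -0.49 and an adjusted p of 0.152, and the call also ended without slick H6 (0.0592) or source H2 (0.0685), within a range from 0.0102 to 0.152. The muscle name rno-miR-133b-5p, whose hairpin is transcribed together with that of miR-206 in mammals, was higher in slick H. It read 1903, 2580 and 1246 CPM in slick H and 690.8, 536.9 and 1002 CPM in source H (log2 1.36 ± 0.38, adjusted p = 0.0259). Its call ended when any single library other than source H3 was left out, with a range of adjusted p from 0.00175 to 0.132. The remaining muscle name, ggo-miR-499a, of a family coded in a myosin heavy chain gene, was at 320.6 to 650.1 CPM in slick H and 565.4 to 1300 CPM in source H (log2 -1.02, adjusted p = 0.0852). Without source H3 its log2 was -1.32 and its adjusted p 0.0205, the lowest of a range up to 0.354.

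Neural names were called in 6 of 16, 2 higher and 4 lower in slick H, with a median log2 of 0.28. This is close to the 36.8% called over all names, and over family totals the median of the list was -0.28. The second most abundant name of all, aca-miR-9-5p, of a family active in neural progenitors, read 295900, 241700 and 240000 CPM in slick H and 235800, 228500 and 197700 CPM in source H. The groups did not overlap, yet the log2 of 0.23 ± 0.17 missed the threshold (adjusted p = 0.311). It passed only with scaling by total counts (log2 0.60, adjusted p = 0.0287, range 0.0287 to 0.542). Both called miR-135 names, of a family expressed in brain, were higher. The name ola-miR-135a stood at 437.1, 362.6 and 356.6 CPM against 90.36, 145.2 and 145.3 CPM (log2 1.60 ± 0.28, adjusted p = 0.00494) and kept its call in all alternatives. For ola-miR-135b the values were 1094, 968.2 and 860.3 CPM against 305.4, 462.1 and 436.8 CPM (log2 1.28 ± 0.27, adjusted p = 0.0107), and the call ended without slick H4 (0.0537, within a range from 4.23e-05 to 0.0537).

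The 4 lower neural names belonged to miR-124, the main miRNA of differentiated neurons, to miR-128 and to miR-153, which are brain families. The name mdo-miR-128a-5p read 6075, 8669 and 8955 CPM in slick H and 16850, 20900 and 11330 CPM in source H (log2 -1.05 ± 0.33, adjusted p = 0.0356). In ola-miR-124-5p the levels were 123.1 to 160.8 CPM against 219.3 to 318.4 CPM (log2 -0.82, adjusted p = 0.0407), and in dre-miR-153b-5p 126.8 to 136 CPM against 207.2 to 250.4 CPM (log2 -0.77, adjusted p = 0.0326). The rare sma-miR-124b-5p had 8 to 21 counts in slick H and 14 to 41 in source H (log2 -1.15, adjusted p = 0.0342). Another miR-124 name, dre-miR-124-4-5p, lay on the other side without being called, at 149.1 to 224.7 CPM in slick H against 124.1 to 139.9 CPM in source H (log2 0.48, adjusted p = 0.185, and 0.0338 with scaling by total counts, the lowest of a range up to 0.500). At the middle dose of source oil, dre-miR-124-4-5p and ola-miR-124-5p held the same counts, 921, 1708 and 1792 in M1, M3 and M5. Their counts differed in the slick libraries of that dose level and in every library at the highest doses. They may therefore share reads and need not be separate measurements. Whether their opposite directions come from how reads were divided between them was not tested. The miR-124 family total overlapped between the oils (log2 -0.28, adjusted p = 0.465). The 4 lower names were among the less stable calls, with an adjusted p up to 0.155 for mdo-miR-128a-5p, 0.231 for ola-miR-124-5p, 0.231 for dre-miR-153b-5p and 0.137 for sma-miR-124b-5p. Each of the 4 lost its call without any 1 of the slick libraries or source H2, and all but sma-miR-124b-5p also without source H1. The activity-linked aca-miR-132-5p was separated, at 52.87 to 69.35 CPM in slick H against 9.074 to 41.51 CPM in source H, but not called (log2 1.41, adjusted p = 0.0583). Without source H3 its log2 was 2.17 and its adjusted p 0.00584, within a range up to 0.236.

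Outside the tissue lists, several of the lower names were among the most stable. The name pol-miR-22-5p, of a family studied in mouse heart growth, took 1.41 ± 0.142% of the tested counts in slick H and 4.02 ± 1.26% in source H. It read 9964, 13790 and 13340 CPM against 57080, 38330 and 41010 CPM, a 3.68-fold lower level in slick H (log2 -1.88 ± 0.28, adjusted p = 0.00237). Outside these libraries its level could drop to 0. It spanned 0 to 15130 CPM over the control libraries and 0 to 17530 CPM with slick oil at 1%, and the reason was not tested. For ola-miR-187 the source libraries were almost equal at 994.5, 966.9 and 972.4 CPM, and the slick libraries lay at 209.3, 223.7 and 333.6 CPM (log2 -1.94 ± 0.28, adjusted p = 0.00237). The abundant ola-miR-181a-5p, of a family expressed in brain and in lymphocytes, stood at 18490, 11800 and 16910 CPM in slick H and 41800, 36850 and 49970 CPM in source H (log2 -1.45 ± 0.27, adjusted p = 0.00613). Of the 4 miR-181 names tested it alone was called, and the median of the list was -0.94. A second, cfa-miR-181b, was separated at 8144 to 9097 CPM against 11720 to 26120 CPM, with a log2 of -0.99 and an adjusted p of 0.0574 (0.0409, the lowest of a range up to 0.202, without source H1).

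Among miRNAs first named in fish, 1 of 11 names was higher and 2 lower, with a median log2 of 0.34. Besides the pair of miR-462 and miR-731, the called member was aca-miR-727-5p, at 196.7, 259.8 and 246.3 CPM in slick H and 620.5, 693.8 and 890.3 CPM in source H (log2 -1.65 ± 0.27, adjusted p = 0.00361). The largest fall of all names was that of mmu-miR-466i-5p, a name from mouse. It had 22, 28 and 30 counts in slick H and 249, 226 and 70 counts in source H, or 3.076, 7.036 and 9.851 CPM against 48.07, 37.73 and 31.59 CPM (log2 -2.60 ± 0.45, adjusted p = 0.00472). Its level varied widely within other groups, from 8.472 to 76.49 CPM over the unexposed control libraries. Slick oil at 1% spanned 0 to 49.28 CPM and source oil at 0.25% spanned 8.479 to 61.02 CPM. The salmon name ssa-miR-7132b-5p read 9.648, 11.06 and 11.49 CPM in slick H and 45.37, 39.9 and 30.68 CPM in source H (log2 -1.86 ± 0.29, adjusted p = 0.00307). These 3 names, ola-miR-187, pol-miR-22-5p and ola-miR-181a-5p kept their call in all 17 alternatives. The catfish name ipu-miR-3618 did not. It stood at 14.12, 31.66 and 34.15 CPM in slick H against 140.4, 81.13 and 36.55 CPM in source H (log2 -1.71 ± 0.53, adjusted p = 0.0358), so that slick H6 and source H3 almost met. Its call ended when any single library other than source H3 was left out, with an adjusted p from 0.0101 to 0.214.

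Of the other lists, the Hox cluster families miR-10 and miR-196, coded among the Hox genes that pattern the body axis, had 2 of 5 names higher and none lower. The name tgu-miR-196 read 2564, 2654 and 3615 CPM in slick H and 764.3, 1054 and 1813 CPM in source H (log2 1.28 ± 0.38, adjusted p = 0.0326). With hhi-miR-196 (932.8 to 1505 CPM against 272.4 to 645.5 CPM, log2 1.24, adjusted p = 0.0356) it lost its call when any single library other than source H3 was left out, with an adjusted p up to 0.133 for tgu-miR-196 and 0.127 for hhi-miR-196. Eye and sensory organ names were called in 1 of 4. That name, ola-miR-204, of a family made in the lens and the pigment epithelium of the retina, stood at 4165, 8283 and 5190 CPM in slick H and 3094, 1143 and 2396 CPM in source H (log2 1.41 ± 0.45, adjusted p = 0.0373). Its call held without source H1 and ended when any other single library was left out (range 0.00558 to 0.165). In the epithelial list 1 of 3 names was lower, cgr-miR-205, at 736 to 1270 CPM against 1721 to 2770 CPM (log2 -1.03, adjusted p = 0.0407, range 0.0225 to 0.208). It held only without source H3 when single libraries were left out. The epithelial sha-miR-200a, at 2425 to 3361 CPM against 3496 to 9963 CPM, was not called (log2 -1.12, adjusted p = 0.0583). Without source H3 its adjusted p was 0.0116, the lowest of a range up to 0.208.

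In the miR-99, miR-100 and miR-125 list 1 of 2 names was lower, ola-miR-100, at 155.6 to 173.6 CPM in slick H against 249.6 to 338.3 CPM in source H (log2 -0.85, adjusted p = 0.0271). It lost its call without any single library other than source H3, with an adjusted p from 0.0173 to 0.174. No name was called among 4 of liver, gut and pancreas, 3 of cartilage and connective tissue, 4 of miR-29, miR-101, miR-148 and miR-152, 2 of miR-15 and miR-107, 2 of miR-26, and 1 each of miR-21, miR-30, miR-34 and miR-430. Their single log2 values ran from -0.93 for the miR-34 name to 1.42 for ola-miR-214. Next in abundance after miR-206 and miR-9, ola-miR-21 took 5.29% of the tested counts in slick H and 5.05% in source H (log2 -0.34 ± 0.22, adjusted p = 0.254). In ola-miR-148 the oils were separated, at 4374 to 8018 CPM against 2381 to 3647 CPM, with an adjusted p of 0.0530 (range 0.0130 to 0.176). A p that misses the threshold does not show equal levels.

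**Figure D3:**
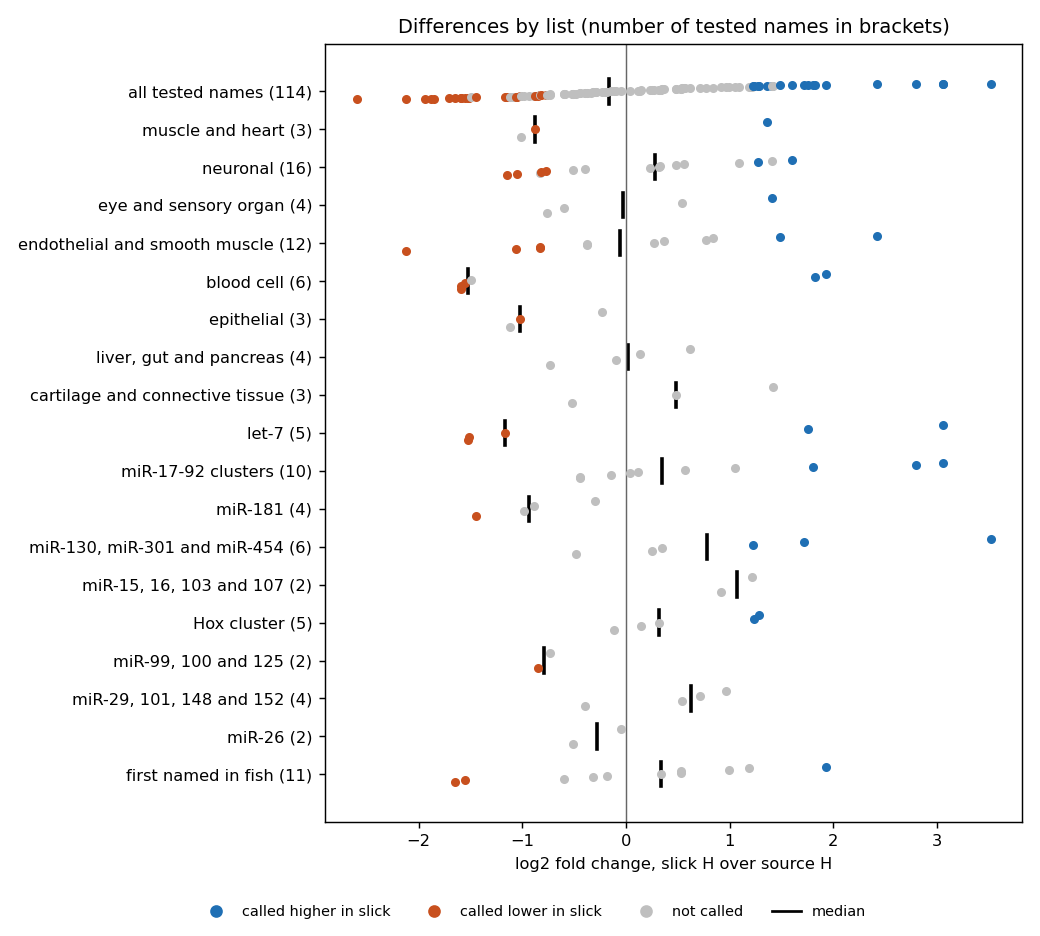
Log2 fold change of slick H over source H for each tested name, by list, with the number of tested names in brackets, colour for the call and a black line at the median. The let-7 list has called names on both sides (from -1.52 to 3.06), the miR-17-92 and the miR-130, miR-301 and miR-454 lists have called names on the higher side alone, and the median over all 114 names is -0.16.

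Of the 83 family totals, 24 (28.9%) were called, 10 (12%) higher and 14 (16.9%) lower in slick H, and 41 (49.4%) did not overlap between the oils. The count was 14 without slick H4, 10 without H5, 13 without H6 and 16 without source H2. Of 31 families with a called name, 22 had a called total and 9 did not. These 9 were miR-24, miR-124, miR-130, miR-133, miR-153, miR-196, miR-204, miR-205 and miR-3618, and 4 of them had 1 tested name. In miR-204, miR-205 and miR-3618 the total held the same counts as the tested name and stayed separated between the oils. Their totals narrowly missed the threshold, with an adjusted p of 0.0597, 0.0523 and 0.0597. In miR-133 the total overlapped between the oils (log2 0.74 ± 0.75, adjusted p = 0.471, range 0.0137 to 0.983), unlike its tested name. Family totals added 2 results that no tested name gave. The miR-16 family, of the seed group of miR-15 that restrains the cell cycle in mammals, stood at 647.4, 207.8 and 385.1 CPM in slick H and 37.81, 38.79 and 50.75 CPM in source H (log2 3.29 ± 0.48, adjusted p = 0.00484). It kept its call in all 17 alternatives that could be computed for it. Its 2 slick names held the same 689 counts in H6 and 1 of them was at 0 in H5, and with the highest name per library the log2 was 2.90. The brain family miR-129 was at 6411, 2818 and 5960 CPM in slick H against 28750, 7874 and 21510 CPM in source H (log2 -1.94 ± 0.56, adjusted p = 0.0393). These levels add names of nearly equal counts, about 13750 for several names in slick H4 and 45630 in source H1, 2 such names in slick H6 and source H3 and 1 name in slick H5 and source H2. Within each oil the levels were ordered as the number of names above 0. With the highest name per library the log2 was -1.71. That call was weak, ending in 10 of 17 alternatives with an adjusted p from 0.00354 to 0.147, and among single libraries it held only without source H2.

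**Figure D4:**
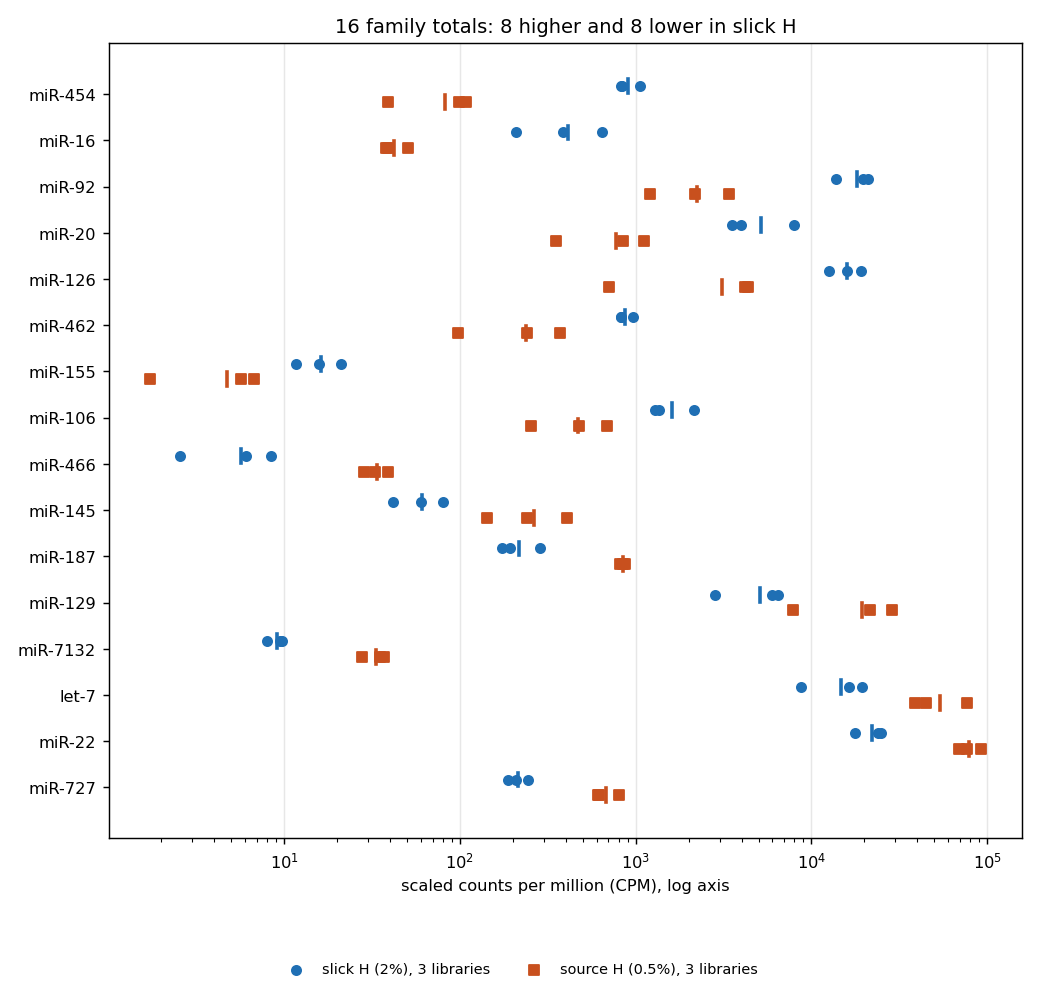
Scaled CPM (log axis) of 16 called family totals, the 8 with the largest rise and the 8 with the largest fall in slick H, 1 point per library with short vertical lines at group means. The oils do not overlap in any of them, and miR-16 spreads from 207.8 to 647.4 CPM in slick H against 37.81 to 50.75 CPM in source H.

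In some families of several names, such as let-7 and miR-27, the total followed the abundant ones. The miR-24 total did not, with a log2 of 0.04 where all 3 tested names were lower. Names of equal counts were counted once, so it added more of these names in slick H than in source H. Its value therefore depends on that counting rule. The let-7 total was lower in slick H, at 19320, 8700 and 16350 CPM against 44850, 39020 and 77140 CPM (log2 -1.86 ± 0.42, adjusted p = 0.0181), although its names let-7g and let-7e were higher. Its call ended without slick H5 (adjusted p = 0.0592) or H6 (0.0505), within a range from 0.00075 to 0.0592. The let-7 total also depends on which names were above 0. All let-7b and let-7d names were at 0 in slick H5, against 21943 and 38510 counts per name in H4. Each source library kept a let-7b name (34573 to 48486 counts) and a let-7d name (65101 to 96669 counts). Both nearly equal names mse-let-7a and tca-let-7-5p were added. The miR-27 total stood at 3823, 3058 and 2493 CPM in slick H and 1112, 991.3 and 997.1 CPM in source H (log2 1.60 ± 0.29, adjusted p = 0.00945) and kept its call in all 19 alternatives. In each table it adds a further name that held the same counts as efu-miR-27b in slick H4, slick H5 and source H1 and was at 0 in the other libraries, and with the highest name per library its log2 was 1.54. More widely, several names of a family could hold nearly the same count in a library, which a total adds, and their number differed between libraries. With the highest name of a family in each library used instead of the sum, 23 families were called, and miR-100, miR-128 and miR-206 lost their call. Of these, miR-100 and miR-206 had 1 name in each table, so their own counts were the same under both rules. For them only the scaling and the adjustment over all families differed.

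The same contrast at the middle doses, slick oil at 1% (slick M) against source oil at 0.25% (source M), used 6 other libraries. There 39 of 109 names (35.8%) were called, 24 (22.0%) higher and 15 (13.8%) lower in slick. With scaling by total counts the split was 17 higher and 3 lower. All 18 names higher at the highest doses were tested there, 16 had the same sign and 15 were called higher. Of the 24 names lower at the highest doses, 21 were tested, 20 had the same sign and 8 were called lower. None of the names called at the highest doses was called in the other direction. The lower names tested there hold the miR-24 and the miR-142 counts under several names each, so they are not all separate measurements. Over all 105 names tested at both dose levels, 81.9% had the same sign. The middle-dose count was 23 without slick M4, 22 without source M1 and 16 without source M3.

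Of the 12 leading higher names 11 were called higher at the middle doses, and of the 12 leading lower names 9 were tested there and 3 were called lower, mse-let-7a and the 2 equal miR-142 names. The name ola-let-7g had a log2 of 2.97 ± 0.31, with 1199 to 1537 CPM in slick M against 139.5 to 217.7 CPM in source M. For sha-miR-92a the log2 was 2.81 ± 0.38, at 12120 to 15570 CPM against 1320 to 3122 CPM. The endothelial tgu-miR-126-5p had a log2 of 2.69 ± 0.46 and ccr-miR-454b one of 2.23 ± 0.43. On the lower side, ola-miR-142 had a log2 of -1.31 ± 0.35 and was called (adjusted p = 0.0130), whereas ola-miR-187 had a log2 of -0.69 ± 0.32 and was not (adjusted p = 0.110). The names ola-miR-204 and rno-miR-133b-5p, higher at the highest doses, had values of -0.05 ± 0.61 and -0.31 ± 0.36. The difference between the dose levels was not tested.

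**Figure D5:**
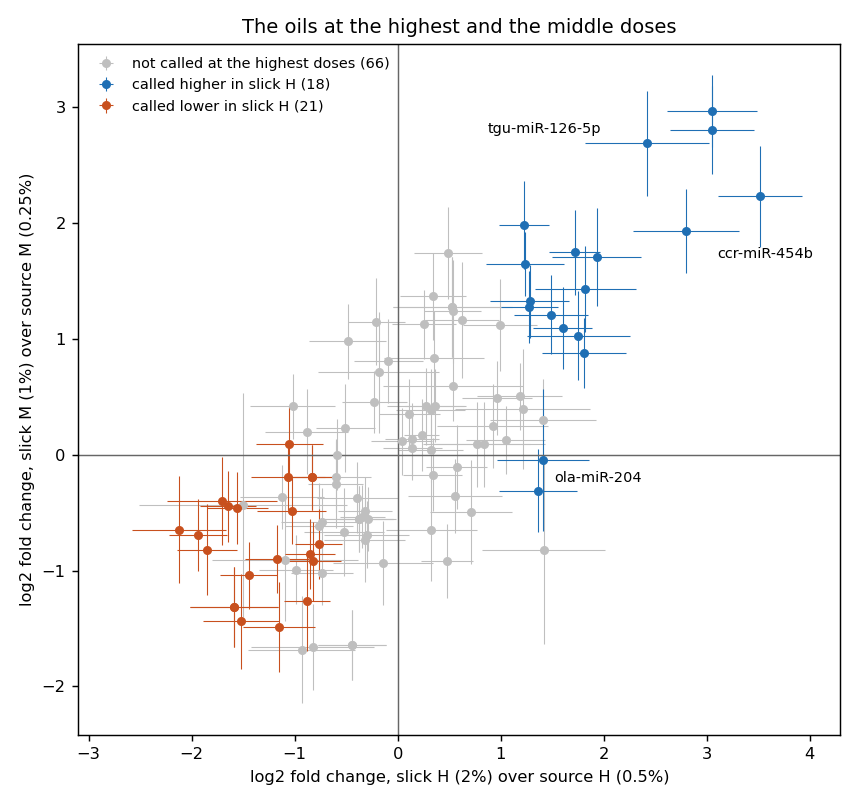
Log2 fold change of slick over source at the middle doses (vertical axis) against the highest doses (horizontal axis) for 105 names tested at both, with SE bars and colour for the call at the highest doses. Of the 18 names called higher, 16 lie above 0 at the middle doses, and of the 21 called lower, 20 lie below 0.

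Levels in the 3 unexposed control libraries, scaled to the same reference library, placed the 2 oils. Of the 18 names higher in slick H, 15 had all source H libraries below all control libraries, against 28.1% of all tested names, and 8 had all slick H libraries above them, against 21.9%. Of the 24 names lower in slick H, 17 had source H wholly above control (28.9% of all names) and 7 had slick H wholly below (21.1%). These are not all separate measurements. The 17 hold miR-24 and let-7a under several names of equal or nearly equal counts, and the 7 hold miR-142 in the same way. The names were chosen for a difference between these same libraries, so the counts are a description. For ccr-miR-454b the control libraries read 522.7 to 908.8 CPM, below slick H and far above source H. For ola-let-7g they read 1422 to 1482 CPM, within the slick H range. The mse-let-7a controls, at 3413 to 4226 CPM, overlapped slick H and lay below source H.

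Some names stood on both sides of control. The controls of sha-miR-92a were at 8396 to 9715 CPM, of tgu-miR-126-5p at 5542 to 6899 CPM and of ola-miR-187 at 332.6 to 405.1 CPM. In the first and second of these slick H was above and source H below control, and in ola-miR-187 source H was above control while slick H reached 333.6 CPM, just into the control range. In the authors' deposited table, the log2 of slick H over control was 1.22 for sha-miR-92a and 1.59 for tgu-miR-126-5p. Their false discovery rates (FDR, from the authors' DESeq2) were 5.1e-12 and 3.5e-13. For source H over control the authors' deposited table gives -1.92 (FDR 4.5e-07) and -0.88 (FDR 0.3575), so the second was not significant there. The name ola-miR-731 has -0.81 (FDR 0.00224) and 0.57 (FDR 0.0508) for slick H and source H in the authors' deposited tables. For ola-miR-462 the values are 1.54 (FDR 8.8e-20) and -0.51 (FDR 0.503). Its source H libraries overlapped control, at 120.3 to 414.2 CPM against 313.3 to 399.3 CPM. The contrasts of slick H and of source H were deposited separately, each with its own FDR, and both use the same control libraries.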

How the data were processed

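Small RNA libraries were made from whole larvae with a NEBNext kit, per the labels' protocols. The authors deposited whole-number read counts per mature miRNA name, 1 table per exposure, and result tables with group mean signals (scaled counts), log2 fold changes and p-values, for which the submitters' processing notes name DESeq2. No aligner, counter or genome build is stated in the sources used here. Count columns were joined to groups, not to single samples, because their numbers do not follow the sample titles. A name on several lines kept its highest count per library.

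Here counts were tested in edgeR 4.0.16 (R 4.3.3) with TMM factors and the quasi-likelihood test, with Benjamini-Hochberg adjustment over all names or families and calls at an adjusted p under 0.05. The SE was taken as the size of the log2 change divided by the root of its F statistic. CPM was computed over tested counts. Family totals counted names of equal counts once. Alternatives used DESeq2 1.42.0, limma-voom 3.58.1, other scalings and filters, and left out libraries. In simulated counts for the 114 names, 14 of 16 names changed by a log2 of 1 and 14 of 14 changed by 2 were recovered, with 1 false call among 84. The simulation gave all names and both oils the same dispersion of 0.05. The real groups differed in spread (median SD on the log2 scale 0.30 in slick H, 0.44 in source H). These figures therefore check the code and do not give the error rate in these libraries. The names given are up to 12 higher and 12 lower by size among called and separated names, 8 and 8 for families, the 5 most abundant, and up to 4 per list. Members, lists and tests were chosen with earlier results of these data known. Sequences were not used here.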

Additional observations from a re-analysis of the deposited data

How the results depend on the processing

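No paired analysis was possible because the count columns do not carry the replicate numbers of the titles. The 42 called names became 18 with names at 0 allowed (138 tested) and 21 without the first library of both tables, an alternative chosen after seeing the data. Leaving out single libraries gave 17 to 51 called names (17 without slick H4, 21 without H5, 17 without H6, 30 without source H1, 25 without H2, 51 without H3). The 24 called families became 13 with zeros allowed and 10 to 26 with single libraries left out. At the middle doses the 39 called names became 20 with total counts as scaling (17 higher and 3 lower), 14 with zeros allowed, 4 without the first library of both tables and 16 to 42 with single libraries left out. The cause of these changes was not tested. DESeq2 called 49 names and limma-voom 47. In scaling, DESeq2 size factors gave 23 higher and 21 lower names, leaving out the 2 most abundant names 21 and 18, and total counts 28 and 10. For families total counts raised the median log2 by 0.37 and gave 18 higher and 10 lower. No called name or family reversed. The 9 families called in every alternative run for them were miR-454, miR-16, miR-92, miR-20, miR-27, miR-187, miR-7132, miR-22 and miR-727.

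Only some of the uncalled names and families were followed over the alternatives. Among these, reversals concerned names and families whose log2 ranged from -0.51 for cgr-miR-26a to 0.54 for chi-miR-182. With total counts as scaling ola-miR-21 had a log2 of 0.034 (from -0.34), ola-miR-430a 0.066 (from -0.31) and aca-miR-26-5p 0.33 (from -0.05). The name aca-miR-26-5p also gave 0.021 with DESeq2 and with its size factors, 0.057 with at least 10 counts, -0.17 to 0.050 with single libraries left out, and 0.15 without the first libraries. The name hsa-miR-25-5p gave -0.14 to 0.19 with single libraries left out and -0.037 without the first libraries. The name cgr-miR-26a gave -1.06 to 0.050 with single libraries left out and 0.15 without the first libraries, and chi-miR-182 gave -0.036 with limma-voom. The miR-24 total (0.04) gave -0.0098 with limma-voom, -0.012 to 0.33 with single libraries left out, -0.93 with every listed name added and -0.75 with the highest name per library. The miR-124 total (-0.28) gave 0.11 with total counts. Depth limits the rare names, since few counts carry wide counting error.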

Other observations

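In some names slick library H4 stood apart from the other 5 libraries of the comparison, and for cgr-miR-26a a near-identical name did not show this in H4. The name cgr-miR-26a had 3670 counts in slick H4, 99095 in H5 and 88613 in H6, and 49031 to 158077 in source H. Its partner aca-miR-26-5p had 151713, 99234 and 88491 counts in slick H, and 49099 to 157897 in source H. Both names therefore agree within 2% in 5 libraries and differ in H4. The eye and sensory organ name chi-miR-182 had 13777 counts in slick H4 against 60669 and 45678 in H5 and H6, or 1926 CPM against 15250 and 15000 CPM, with 4319 to 9120 CPM in source H. Neither was called (log2 -0.51 for cgr-miR-26a and 0.54 for chi-miR-182), and the reason for the low value in H4 was not tested.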
